A study of Mus musculus with 60 samples.

Results

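The comparison set MYC-active pancreatic islets of mice 8 hours after the drug that activates MYC against islets 4 hours after it. It took 11 of the 60 Affymetrix arrays of the series, 6 MycON arrays at 8 h and 5 MycON arrays at 4 h, chosen by their titles. Every mouse was a male of the CBA-C57BL/6 background and carried the pIns-MYCERTAM transgene, in which the insulin promoter makes beta cells produce MYC fused to a drug-dependent receptor part. MycON mice received 1 mg of 4-hydroxytamoxifen (4OHT) per day into the abdominal cavity, and MycOFF mice received peanut oil. Each group was further split between exendin-4, also called exenatide, an agonist of the GLP-1 receptor injected under the skin at 50 µg/kg, and water, both begun 2 days earlier. The age is 8 to 12 weeks in one label and 3 months in another. The 8 h MycON arrays were 3 with exendin-4 and 3 with water, and the 4 h MycON arrays were 2 with exendin-4 and 3 with water. The same step in MycOFF islets served as the check, with 5 arrays at 8 h (3 exendin-4, 2 water) and 6 arrays at 4 h (3 of each).

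Islets were cut by laser from frozen pancreas sections 15 µm thick, so beta cells were measured together with the other islet cells and with whatever neighbouring tissue was captured. All MycON mice had 4OHT and no MycOFF mouse did, so the drug and the activity of the fusion cannot be told apart, and every mouse carried the transgene. Mouse Myc did not pass the filter on spread, and the fusion itself was not checked. The labels call the arrays of a group biological replicates and tie none to a named animal, so p-values measure the spread between these arrays, which may be technical. The submitters excluded 8 arrays after quality control, of which 2 belong to these times, replicate 3 of MycON exendin-4 at 4 h and replicate 2 of MycOFF water at 8 h, and both were left out here. Those 2 arrays stand apart in their lymphocyte markers, with list means of 5.89 and 5.96, against -0.06 to 0.66 in the 22 arrays kept at these times.

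MYC is a transcription factor that pairs with MAX and binds E-box sequences, CACGTG among them, near genes for growth, ribosome production and metabolism. Adult beta cells seldom divide. When a resting cell is pushed into the cell cycle, cyclin-dependent kinases release E2F factors from the retinoblastoma proteins, and E2F switches on a block of genes for origin licensing, replication forks, nucleotide supply and, later, mitosis. TTCCCGC and TTGGCGC are common forms of the E2F binding site, and CCAAT boxes are frequent in promoters of mitotic genes.

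Between 4 and 8 h the MycON islets gained transcripts of DNA replication and cell division. Of 13176 genes tested with limma, 50 were higher at 8 h than at 4 h (0.379% of those tested) and 4 were lower (0.0304%), at a Benjamini-Hochberg adjusted p under 0.05. Among the 50 were the licensing factor Cdc6, the fork proteins Prim2, Rfc4, Rpa2 and Pold1, both subunits of ribonucleotide reductase (Rrm1 and Rrm2), cyclin A2 (Ccna2), the proliferation marker Mki67 and the topoisomerase Top2a. The rises ran from 0.66 to 3.02 log2 units with a median of 1.82, and 49 of the 50 were at least 2-fold. The same step in MycOFF islets changed 0 genes (0%) by that test, with 611 genes (4.64%) at an unadjusted p under 0.05, while 844 (6.41%) were in MycON islets, 545 higher (4.14%) and 299 lower (2.27%). In captured islets, more cells of a kind and more RNA per cell cannot be told apart.

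The calls depend on which arrays are fitted. With the 2 excluded arrays put back, 0 genes passed in MycON islets by limma, with 734 (5.57%) at an unadjusted p under 0.05. In those 2 arrays the mean of the 50 genes was 1.37 in the 4 h MycON array and 1.79 in the 8 h MycOFF array, inside the range of the kept MycON arrays at 8 h (1.07 to 2.13). A fit over all 52 arrays and 5 times also gave 0 genes, with 653 (4.96%) at an unadjusted p under 0.05, and there the median residual SD of the 50 genes was 0.833, against 0.556 in the fit of the 22 arrays of both times. A fit of the 11 MycON arrays alone gave 22 genes, of which 16 were among the 54 called in the fit of 22 arrays. Without replicate 2 of MycON exendin-4 at 4 h, which leaves 1 exendin-4 array at that time, 9 genes passed. All 54 genes kept their direction in each of these fits.

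The deposited values are on a log2 scale and centred per probe set, with 0 at the probe set's median across the 60 arrays, so a value can be compared between arrays but not between genes. Averaged over the 50 genes, the deviations in MycON arrays at 8 h were 1.88, 2.13 and 1.85 with exendin-4 and 1.73, 1.07 and 1.07 with water. The MycON arrays at 4 h had -0.16 and -0.21 with exendin-4 and -0.39, 0.05 and -0.50 with water. MycOFF arrays lay from -0.75 to -0.29 at 8 h and from -0.47 to 0.25 at 4 h. These means, and the counts of the 50 that follow, describe genes chosen by the same contrast, which favours them, and carry no test. In 40 of the 50 genes every MycON array at 8 h was above every MycON array at 4 h, which held for 97 of all genes tested (0.736%). In 18 of the 50 all 6 MycON arrays at 8 h were above all 16 other arrays, which held for 29 of all genes (0.220%).

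**Figure D1:**
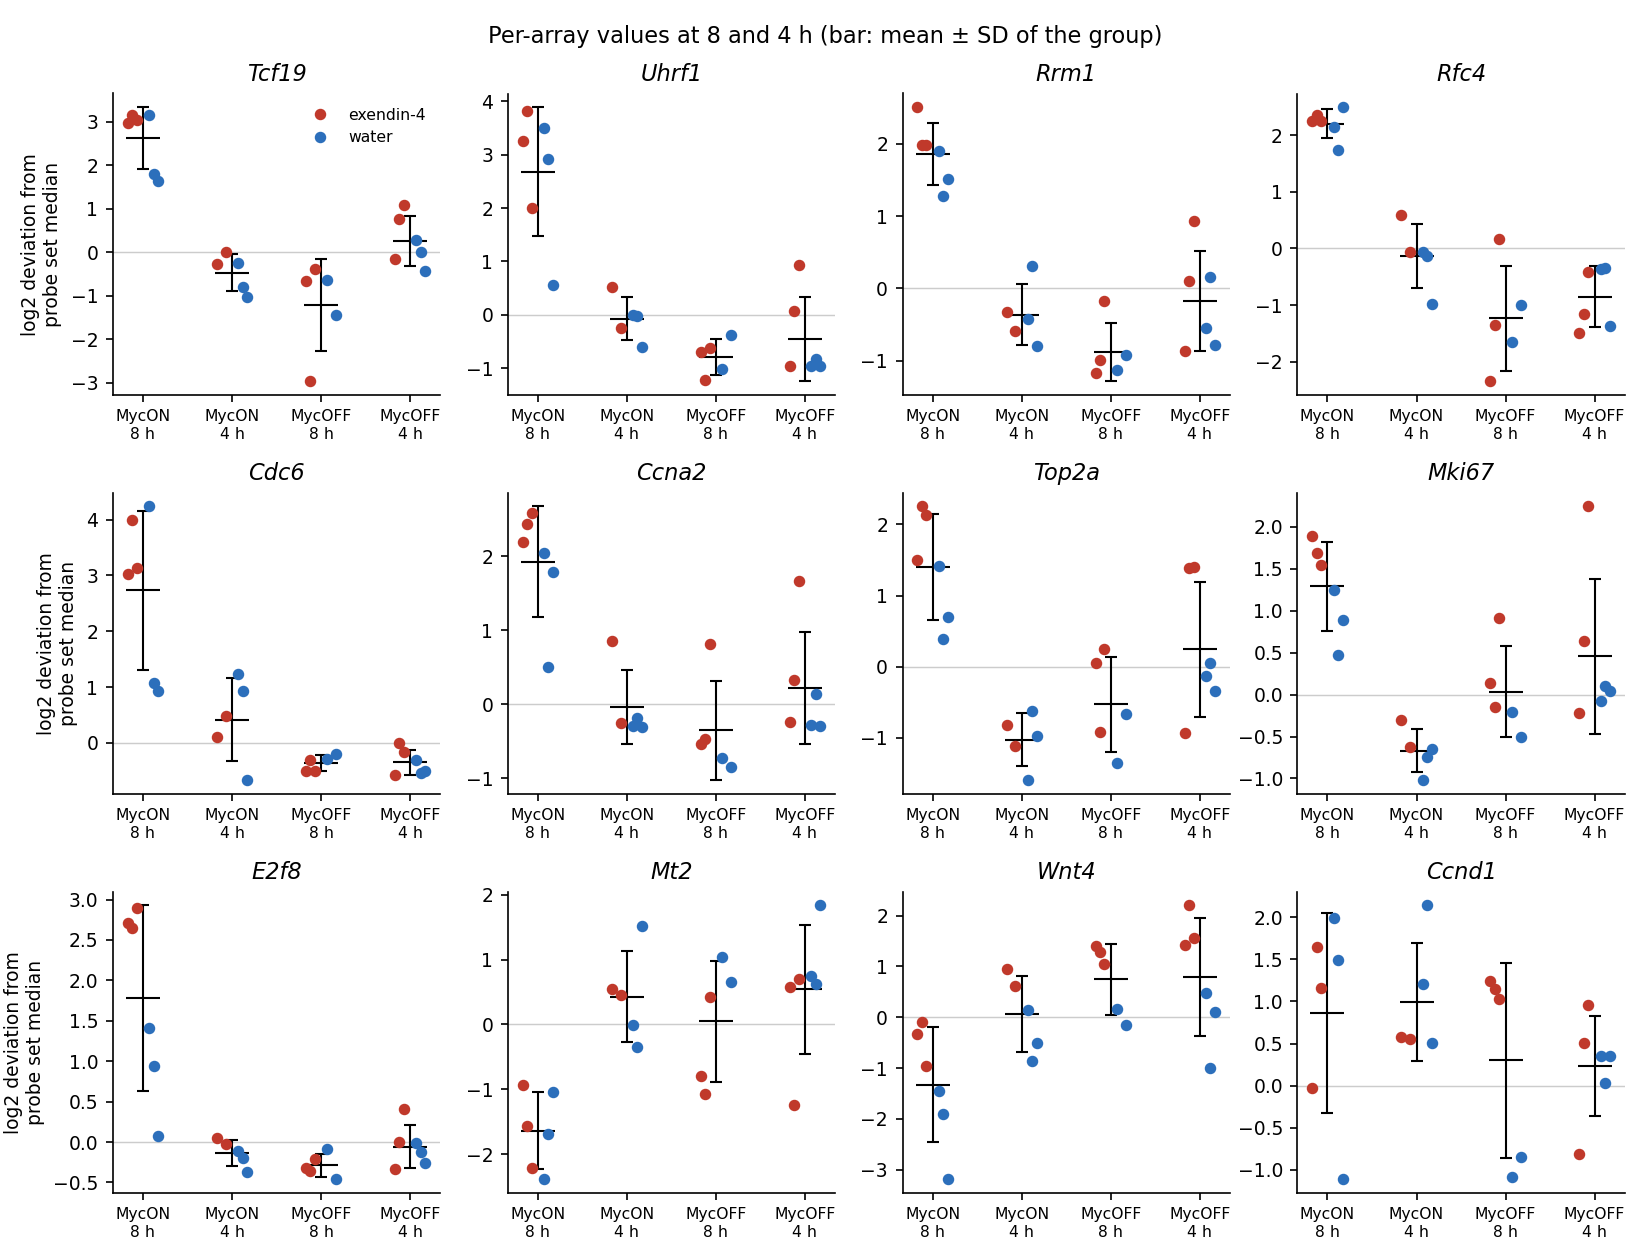
Values per array for 12 genes, as log2 deviation from the probe set median, in MycON and MycOFF islets at 8 and 4 h; points are arrays, coloured by injection, and bars are the group mean ± SD. For Rrm1 the 6 MycON arrays at 8 h lie between 1.28 and 2.51, above all 16 others, Mt2 and Wnt4 are lower at 8 h than at 4 h in MycON islets, and Ccnd1 overlaps between the times.

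The promoters of the genes that rose were searched for the sequences named above, in the 250 bases before the annotated start (RefSeq, GRCm38.p6), on both strands. A promoter was at hand for 37 of the 50 genes. TTCCCGC occurred in 11 of them (29.7%), against 7.41% of the promoters of all genes tested and 4.38% of all promoters. TTGGCGC occurred in 4 (10.8%, against 3.87% and 2.31%), and 15 held one or the other (40.5%, against 10.8% and 6.45%). CCAAT occurred in 24 (64.9%, against 40.1% and 37.5%), and the E-box CACGTG in 2 (5.41%, against 9.51% and 6.86%). A match describes letters in a window and shows no binding. Promoters holding TTCCCGC are shown for 4 genes, taken in order of step size among those holding either E2F form. They are the chromatin reader Uhrf1, the licensing factor Cdc6, the ribonucleotide reductase subunit Rrm1 and the kinetochore protein Cenpk, with the motif in capitals. It begins 48 bases before the start in Uhrf1, 138 in Cdc6 (where it lies on the opposite strand and reads GCGGGAA), 67 in Rrm1 and 18 in Cenpk.
Uhrf1, chr17:56303087-56303336, + strand: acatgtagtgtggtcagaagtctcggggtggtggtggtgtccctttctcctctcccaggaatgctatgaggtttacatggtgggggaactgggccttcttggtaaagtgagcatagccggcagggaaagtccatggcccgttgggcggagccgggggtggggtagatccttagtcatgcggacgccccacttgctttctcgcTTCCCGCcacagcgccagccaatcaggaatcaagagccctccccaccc
Cdc6, chr11:98907901-98908150, + strand: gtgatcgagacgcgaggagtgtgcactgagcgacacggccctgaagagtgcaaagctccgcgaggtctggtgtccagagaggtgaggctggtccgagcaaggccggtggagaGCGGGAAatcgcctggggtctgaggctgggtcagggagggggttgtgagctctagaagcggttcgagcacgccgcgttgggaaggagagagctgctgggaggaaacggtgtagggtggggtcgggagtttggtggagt
Rrm1, chr7:102441445-102441694, + strand: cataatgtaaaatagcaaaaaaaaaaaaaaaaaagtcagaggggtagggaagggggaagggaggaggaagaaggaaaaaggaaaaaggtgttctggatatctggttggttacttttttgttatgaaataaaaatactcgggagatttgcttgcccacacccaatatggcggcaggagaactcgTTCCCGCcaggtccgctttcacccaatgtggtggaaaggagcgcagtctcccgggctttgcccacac
Cenpk, chr13:104229138-104229387, + strand: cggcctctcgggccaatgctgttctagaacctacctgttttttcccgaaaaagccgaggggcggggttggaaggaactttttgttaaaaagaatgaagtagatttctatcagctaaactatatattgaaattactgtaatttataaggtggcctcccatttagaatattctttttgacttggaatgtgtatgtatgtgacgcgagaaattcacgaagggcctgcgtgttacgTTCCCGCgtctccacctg

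Origin licensing and the replicative helicase form the first step of replication: the origin recognition complex, Cdc6 and Cdt1 load the MCM ring, and the GINS complex turns it into an active helicase. Of 20 tested genes in a list of these factors, 5 rose (Gins1, Cdc6, Mcm6, Mcm4 and Gins3) and 0 fell, and all 20 steps were above 0. Over all 13176 genes tested, 50 rose (0.379%), 4 fell (0.0304%) and 7444 had a step above 0. These shares are the background for this list and those below. The median step of the list was 1.36 log2 units in MycON islets and -0.12 in MycOFF islets, where the medians over all genes were 0.03 and -0.06.

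Gins1, a GINS subunit, had deviations of 3.31, 2.74 and 3.05 with exendin-4 and 3.35, 1.93 and 0.06 with water in MycON islets at 8 h. At 4 h the MycON arrays lay between -0.21 and 0.65. One water array at 8 h thus stayed within the 4 h range, and the step was 2.28 ± 0.39 (SE), a 4.87-fold rise with an adjusted p of 0.0130 by limma. Cdc6, which loads the helicase, spread widely at 8 h, with 3.03, 4.00 and 3.13 with exendin-4 and 4.24, 1.07 and 0.93 with water. At 4 h its MycON arrays had 0.10 and 0.49 with exendin-4 and 1.23, 0.92 and -0.67 with water. The times therefore overlap for Cdc6, and its step of 2.25 ± 0.49 only just passed (adjusted p 0.0498), a call lost in 18 of 22 fits that leave out 1 array. In MycOFF islets its step was -0.01.

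Mcm4 and Mcm6 are subunits of the ring. Mcm4 lay between 1.34 and 2.80 in MycON islets at 8 h (median 1.70), against -0.07 to 0.79 at 4 h (median 0.14), with a step of 1.60 ± 0.29 (adjusted p 0.0189). Mcm6 lay between 1.57 and 2.97 at 8 h, against -0.39 to 0.86 at 4 h, with a step of 2.03 ± 0.44 (adjusted p 0.0498). All 6 MycON arrays at 8 h were above the other 16 for both genes, and the call for Mcm6 was lost in 18 of the 22 fits. Gins3, another GINS subunit, stepped by 1.38 ± 0.26 (adjusted p 0.0240).

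Several members with large steps did not pass. Mcm5 had a step of 2.59 ± 0.60 (adjusted p 0.0737), with MycON arrays at 8 h between 1.91 and 3.64, against -1.68 to 0.69 at 4 h. Cdt1, the partner of Cdc6, had 2.10 to 2.90 at 8 h, against 0.31 to 1.50 at 4 h, without overlap (step 1.52 ± 0.43, adjusted p 0.227). Mcm3 (1.70), Mcm2 (1.61), Cdc7 (1.51), Mcm10 (1.35) and Mcm7 (1.12) had adjusted p-values between 0.0864 and 0.668. The origin recognition subunits Orc2, Orc3 and Orc5 had steps of 0.20, 0.06 and 0.10.

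At the replication fork, primase starts each strand, polymerases alpha, delta and epsilon extend it, and clamp loaders, single-strand binders and maintenance proteins keep pace. Of 27 tested genes in this list, 10 rose and 0 fell, and all 27 steps were above 0, with a median of 1.31 in MycON islets and -0.31 in MycOFF islets. Over all genes tested, 0.379% rose, and 7444 of 13176 steps were above 0. The 10 were Uhrf1, Prim2, Rfc4, Rpa2, Hells, Prim1, Dnmt1, Pold1, Pole and Tipin.

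Uhrf1, which reads hemimethylated DNA behind the fork and recruits the maintenance methyltransferase Dnmt1, had 3.27, 3.83 and 1.99 with exendin-4 and 3.51, 2.92 and 0.57 with water in MycON islets at 8 h. Its MycON arrays at 4 h had 0.52 and -0.24 with exendin-4 and 0.00, -0.02 and -0.61 with water. The lowest array at 8 h exceeded the highest at 4 h by a narrow margin, and the step was 2.70 ± 0.46, or 6.48-fold (adjusted p 0.0130). Dnmt1 itself stepped by 1.82 ± 0.38 (adjusted p 0.0362, lost in 13 of 22 fits that leave out 1 array), with 0.49 to 2.51 at 8 h, against -1.81 to 1.02 at 4 h, an overlap between the times.

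Rfc4, a clamp loader subunit, had 2.24, 2.36 and 2.25 with exendin-4 and 2.15, 1.73 and 2.49 with water in MycON islets at 8 h. The MycON arrays at 4 h had 0.59 and -0.07 with exendin-4 and -0.07, -0.14 and -0.99 with water. All 6 arrays at 8 h were above the 16 others, including the MycOFF arrays, which had -2.34 to 0.16 at 8 h and -1.49 to -0.34 at 4 h. The step of 2.30 ± 0.36 (4.92-fold, adjusted p 0.00767) passed in each fit that left out 1 array. The single-strand binder Rpa2 passed in each of those fits too, with 1.55 to 3.44 at 8 h, against -0.41 to 1.25 at 4 h (step 2.01 ± 0.32, adjusted p 0.00807).

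Both primase subunits rose, Prim2 by 2.43 ± 0.44 (adjusted p 0.0189) and Prim1 by 1.84 ± 0.36 (adjusted p 0.0255). Prim2 had 0.68 to 2.24 in MycON islets at 8 h, against -1.79 to -0.24 at 4 h, and Prim1 1.22 to 2.19 at 8 h, against -2.04 to 0.72 at 4 h. For both genes the MycON arrays at 8 h were above all others. The catalytic subunits of polymerases delta (Pold1, 1.63 ± 0.28, adjusted p 0.0135) and epsilon (Pole, 1.58 ± 0.29, adjusted p 0.0189) rose too, while Pola1 of polymerase alpha stepped by 1.31 (adjusted p 0.0635). The chromatin remodeller Hells stepped by 1.89 (adjusted p 0.0463, lost in 19 of 22 fits that leave out 1 array) and the fork protector Tipin by 1.46 (adjusted p 0.0463, lost in 17). The sliding clamp Pcna, a common marker of S phase, stepped by 0.94 (adjusted p 0.790), and the flap nuclease Fen1 by 1.29 (adjusted p 0.621).

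DNA precursors are made by ribonucleotide reductase, whose large subunit is Rrm1 and whose S-phase small subunit is Rrm2. Rrm1 had 2.51, 1.98 and 1.99 with exendin-4 and 1.90, 1.28 and 1.51 with water in MycON islets at 8 h. At 4 h the MycON arrays had -0.32 and -0.59 with exendin-4 and -0.42, 0.31 and -0.80 with water. The groups did not overlap, with a step of 2.20 ± 0.30, or 4.59-fold (adjusted p 0.00290). Rrm2 had 0.42 to 2.07 at 8 h, against -2.05 to 0.47 at 4 h, a slight overlap, with a step of 2.19 ± 0.41 (adjusted p 0.0208). These 2 were the only genes of 22 tested in a list of nucleotide synthesis to pass. The list's median step was 0.05, with 0.55 for Tk1 and 0.19 for Tyms, which make thymidine nucleotides, 0.04 for Cad and -0.13 for Umps of pyrimidine synthesis, and -0.56 for Gart of purine synthesis. Atic, also of purine synthesis, had the lowest step, -1.24 (adjusted p 0.456).

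The regulators of entry into S phase were mixed. Of 20 tested, 2 rose, E2f8 and Cks1b, with a list median of 0.24. E2f8, an E2F that represses E2F target genes, had 2.71, 2.65 and 2.89 with exendin-4 and 1.41, 0.94 and 0.08 with water in MycON islets at 8 h. At 4 h the MycON arrays lay between -0.38 and 0.04. Every exendin-4 array at 8 h was above every water array, and the step was 1.80 ± 0.27 (adjusted p 0.00767). Cks1b, a subunit of cyclin-dependent kinase complexes, stepped by 1.65 ± 0.33 (adjusted p 0.0278), with 2.14, 1.54 and 2.61 with exendin-4 and 2.06, 0.03 and 0.44 with water at 8 h.

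The E-type cyclins and E2f1, which act at the G1 to S boundary, had steps above 0 that did not pass. Ccne1 stepped by 1.33 (adjusted p 0.423), Ccne2 by 1.41 (adjusted p 0.652), E2f1 by 1.31 (adjusted p 0.445), E2f7 by 1.73 (adjusted p 0.137) and Skp2 by 1.54 (adjusted p 0.440). The D-type cyclins, which receive growth signals earlier in G1, had steps of -0.11 for Ccnd1, -0.20 for Ccnd2 and 0.13 for Ccnd3. Ccnd1 had -1.11 to 1.99 in MycON islets at 8 h and 0.50 to 2.14 at 4 h, overlapping widely. Of 7 tested inhibitors of cyclin-dependent kinases 0 passed, with steps between -0.30 (Cdkn1a) and 0.64 (Cdkn2c).

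Mitotic genes, which in a normal cycle peak after S phase, were also among those higher at 8 h. Of 34 tested, 6 rose and 0 fell (Bub1b, Top2a, Mki67, Ccna2, Incenp and Birc5), with a median step of 1.03 in MycON islets and -0.25 in MycOFF islets. Among all genes tested 0.379% rose. Bub1b, a spindle checkpoint kinase, had 3.87, 3.31 and 3.99 with exendin-4 and 2.20, 0.19 and 2.28 with water at 8 h. At 4 h its 5 MycON arrays lay between -0.26 and -0.08, and the step was 2.65 ± 0.50 (adjusted p 0.0228). Top2a, which untangles chromosomes, had 1.50, 2.26 and 2.13 with exendin-4 and 1.41, 0.39 and 0.70 with water at 8 h, against -1.60 to -0.62 at 4 h (step 2.36 ± 0.38, adjusted p 0.00807). For both genes the lowest 8 h array was a water array.

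Mki67, which coats mitotic chromosomes and marks cycling cells, had 0.48 to 1.89 in MycON islets at 8 h (median 1.40), against -1.02 to -0.31 at 4 h (median -0.64). Its step was 1.90 ± 0.31 (adjusted p 0.00864). The MycOFF arrays overlapped with the 8 h MycON group, at -0.50 to 0.91 at 8 h and -0.22 to 2.25 at 4 h, the highest of them being exendin-4 replicate 3 at 4 h. Ccna2, the cyclin of S phase and G2, had 0.50 to 2.59 in MycON islets at 8 h, against -0.31 to 0.85 at 4 h, with overlap (step 1.88 ± 0.34, adjusted p 0.0178). Incenp and Birc5, partners of Aurora B, stepped by 1.81 ± 0.29 (adjusted p 0.00807) and 1.61 ± 0.32 (adjusted p 0.0292).

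The M-phase kinase Cdk1 stepped by 1.52 (adjusted p 0.440), Cdc20 by 1.25 (adjusted p 0.734), Aurka by 0.77 (adjusted p 0.654) and Ccnb2 by 0.66 (adjusted p 0.939), so none of these regulators of mitosis passed. The cohesion factor Cdca5 had the largest step of the list, 2.90, with an adjusted p of 0.129.

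Of 14 tested genes of DNA repair and recombination, 5 rose (Chek1, Brca1, Blm, Rad54l and Brca2) and 0 fell, with a median of 0.98 in MycON islets and -0.14 in MycOFF islets. The share of all genes tested that rose was 0.379%. Rad54l, a motor of homologous recombination, had 1.44, 1.53 and 1.50 with exendin-4 and 0.52, 0.61 and 0.79 with water at 8 h, with no overlap between the injections. Its 5 MycON arrays at 4 h lay between -0.09 and -0.00 (step 1.07 ± 0.16, adjusted p 0.00767). Chek1, the kinase of the replication checkpoint, had 2.10 to 2.49 at 8 h, against -0.40 to 1.42 at 4 h (step 1.80 ± 0.38, adjusted p 0.0383). It is one of 7 risen genes whose MycOFF step was also above 0 (0.69), and its call was lost in 14 of 22 fits that leave out 1 array. The helicase Blm stepped by 1.50 ± 0.26 (adjusted p 0.0147) and Brca2 by 1.04 ± 0.21 (adjusted p 0.0305).

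Brca1, a recombination protein, had 2.42, 3.62 and 2.71 with exendin-4 and 2.15, 0.12 and -0.00 with water in MycON islets at 8 h. At 4 h the 5 arrays lay between -0.15 and -0.01. Only 1 of the 3 water arrays at 8 h was clearly above the 4 h arrays, and the call (step 1.79 ± 0.39, adjusted p 0.0498) was lost in 20 of 22 fits that leave out 1 array. Rad51ap1, an accessory of the recombinase, had a step of 2.62 that just missed (adjusted p 0.0546).

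The lists held 30 of the 50 genes, and the other 20 stood in none of the 42 lists. Among these was Tcf19, a chromatin-associated protein that is also known from islets. Its MycON arrays at 8 h had 2.98, 3.15 and 3.03 with exendin-4 and 3.15, 1.79 and 1.64 with water. At 4 h they had -0.27 and 0.00 with exendin-4 and -0.25, -0.81 and -1.03 with water. It had the largest step of the 50, 3.02 ± 0.40 or 8.13-fold (adjusted p 0.00290), and all 6 arrays at 8 h lay above the 16 others.

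Histone and chromatin factors among the 20 included Asf1b, a chaperone that hands histones to the fork (2.54 ± 0.47, adjusted p 0.0208), the bromodomain ATPase Atad2 (2.22 ± 0.44, adjusted p 0.0260), the histone methyltransferase Ezh2 (1.83 ± 0.35, adjusted p 0.0254) and the histone variant H2az1 (0.66 ± 0.13, adjusted p 0.0255). H2az1 was the 1 risen gene under 2-fold, with 0.28 to 0.60 at 8 h, against -0.48 to -0.02 at 4 h. Kinetochore and chromosome genes were Spc24 (2.33 ± 0.36, adjusted p 0.00767), Cenpk (2.04 ± 0.40, adjusted p 0.0255) and the condensin subunit Ncapg2 (1.61, adjusted p 0.0321). Dscc1, of the clamp loader for cohesion, stepped by 2.17 ± 0.34 (adjusted p 0.00767), and Fbxo5, an inhibitor of the anaphase-promoting complex, by 2.16 ± 0.42 (adjusted p 0.0247).

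Recombination and telomere genes outside the lists were Psmc3ip (1.82 ± 0.25, adjusted p 0.00290), Rad50 (1.21, adjusted p 0.0459) and the shelterin member Tinf2 (1.25, adjusted p 0.0359). Leaving out 1 array lost the call for Rad50 in 19 of 22 fits and for Tinf2 in 13. The microtubule regulator Stmn1 (1.29, adjusted p 0.0359, lost in 12), the nuclear pore anchor Ndc1 (1.30, adjusted p 0.0208), the ubiquitin ligase Rnf26 (1.29, adjusted p 0.0131), BC055324 (1.62, adjusted p 0.0247) and Brip1os (1.19, adjusted p 0.0313) complete the 20 together with Scn9a and Tspan4.

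Those last 2 are not known as cell cycle genes. Scn9a, a voltage-gated sodium channel also found in beta cells, had -0.10 to 0.91 in MycON islets at 8 h, against -1.97 to -0.57 at 4 h (step 1.38 ± 0.25, adjusted p 0.0178). The MycOFF arrays had 0.30 to 0.81 at 8 h, against -0.52 to 0.60 at 4 h, so the MycON arrays at 4 h were the lowest of the 4 groups. The call for Scn9a rests on 1 probe set, and its others past the filter stepped by 0.22, 0.27 and 0.23 in MycON islets. With the mean over probe sets its step was 0.53 and did not pass (adjusted p 0.489 by limma). Tspan4, a tetraspanin membrane protein, had 0.91 to 2.77 in MycON islets at 8 h, against -0.24 to 0.68 at 4 h (step 1.72 ± 0.32, adjusted p 0.0208). All MycOFF arrays were far lower, at -2.71 to -1.72 at 8 h and -2.73 to -1.88 at 4 h, so its MycON arrays already lay above MycOFF at 4 h.

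The probe sets limit some of these names. Of the 50 genes, 7 are read by probe sets with the suffix _x_at and 5 by _s_at, which on these arrays may also pick up related transcripts, Mcm4, Mcm6, Pold1, Rrm2, Dnmt1, Rfc4, Chek1 and Bub1b among them. Another probe set past the filter existed for 28 of the 50 genes, 39 in all, of which 36 gave a step above 0, 11 a step of at least 1 log2 unit and 14 a step between -0.25 and 0.25. The 3 at or below 0 were probe sets of Atad2 (-0.01), Chek1 (-0.00073) and Top2a (-0.08). Small steps were also read for Rrm1 (0.11) and Rpa2 (0.10), whose calls passed in each fit that left out 1 array. Further small ones were those of Brca1 (0.02), Stmn1 (0.14) and Incenp (0.02 and 0.22). Among the 11 large ones were probe sets of Hells (2.51) and Prim1 (1.75). With the mean over probe sets, 51 of the 54 called genes passed, and Ndc1, Scn9a and Stmn1 did not.

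Only 4 genes fell. Mt2, a metallothionein that binds zinc and copper and responds to metals and glucocorticoids, had -0.94, -1.57 and -2.22 with exendin-4 and -2.39, -1.70 and -1.04 with water in MycON islets at 8 h. At 4 h the MycON arrays had 0.55 and 0.45 with exendin-4 and -0.01, -0.35 and 1.51 with water. The step was -2.09 ± 0.42 (adjusted p 0.0292), without overlap, which held downward for 21 of all genes tested (0.159%), with -2.08 for exendin-4 and -2.09 for water. The related Mt1 stepped by -0.58 (adjusted p 0.897), and Mt2 was the 1 gene of 14 tested glucocorticoid targets to pass. In MycON islets at 16 h Mt2 averaged 1.51 ± 0.51 (SD, n = 4), where the 4 h mean was 0.43 ± 0.71 (SD, n = 5).

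Wnt4, a secreted signal made in islets, had -3.18 to -0.10 in MycON islets at 8 h (median -1.21), against -0.86 to 0.94 at 4 h (median 0.14). Its step was -1.54 ± 0.32 (adjusted p 0.0352), although the ranges overlap, and water arrays lay below exendin-4 arrays at both times. Ccdc166 stepped by -0.91 ± 0.20 (adjusted p 0.0498), a call lost in 19 of 22 fits that leave out 1 array, and Fjx1, of the four-jointed family, by -0.64 ± 0.13 (adjusted p 0.0255). Fjx1 had -0.02 to 0.09 in MycON arrays at 8 h, against 0.30 to 1.04 at 4 h, and MycOFF arrays had -0.05 to 0.28 at 8 h and -0.05 to 0.01 at 4 h, so the MycON arrays at 4 h stood above the 3 other groups. The next fall, D2hgdh, was -1.12 ± 0.25 and just missed (adjusted p 0.0546).

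The MycOFF islets went through the same 4 hours. Of the 50 genes that rose in MycON islets, 43 had a MycOFF step below 0 and 7 above 0, with a median of -0.29 and a range of -1.50 to 0.69. Over all genes tested, 5287 of 13176 had a MycOFF step above 0, with a median of -0.06, so most genes stepped below 0 there. Tested directly as the MycON step minus the MycOFF step, 20 genes differed upward (0.152%) and 0 downward (0%), with 797 (6.05%) at an unadjusted p under 0.05, and 18 of the 20 were among the 50. The largest of these differences was that of Tcf19, 4.52 ± 0.57, adjusted p 0.00299 by limma, whose MycOFF step was -1.50. Its MycOFF arrays had -2.96 to -0.40 at 8 h, against -0.43 to 1.08 at 4 h. A difference can thus draw on a lower 8 h group in MycOFF islets as well as on a higher one in MycON islets.

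Further differences were those of Top2a (3.21 ± 0.54, adjusted p 0.0266), Rrm2 (3.21 ± 0.58, adjusted p 0.0364), Atad2 (3.16 ± 0.62, adjusted p 0.0460), Spc24 (2.97 ± 0.51, adjusted p 0.0333), Cenpk (2.96 ± 0.57, adjusted p 0.0378), Rrm1 (2.94 ± 0.42, adjusted p 0.00942) and Rfc4 (2.67 ± 0.51, adjusted p 0.0364). Lig1, the ligase that joins Okazaki fragments, passed for the difference (3.42 ± 0.68, adjusted p 0.0486) and not for the MycON step (1.92, adjusted p 0.122), and so did Eri1, a nuclease that trims histone mRNA (1.50 ± 0.28, adjusted p 0.0364, with a MycON step of 0.84, adjusted p 0.0772). Lig1 had 0.14 to 2.07 in MycON islets at 8 h, against -1.72 to 0.89 at 4 h, and in MycOFF islets -2.15 to -0.16 at 8 h, against -1.38 to 1.00 at 4 h.

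For the other genes among the 50 the difference did not pass, so their rise is not shown to differ from the MycOFF step. The difference was 3.07 ± 0.65, adjusted p 0.0827 for Uhrf1, 3.00 ± 0.71, adjusted p 0.155 for Bub1b, 2.27 ± 0.69, adjusted p 0.439 for Cdc6 and 1.11 ± 0.53, adjusted p 0.827 for Chek1. None of the 4 falls passed, with differences of -1.71 ± 0.59, adjusted p 0.608 for Mt2 and -1.33 ± 0.45, adjusted p 0.570 for Wnt4. The smallest p-values among negative differences were those of Cfap126 (-1.18, adjusted p 0.155), Wnk4 (-1.40, adjusted p 0.155), Fjx1 (-0.71, adjusted p 0.202), Tmc4 (-1.51, adjusted p 0.248) and Tars (-1.25, adjusted p 0.249).

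**Figure D2:**
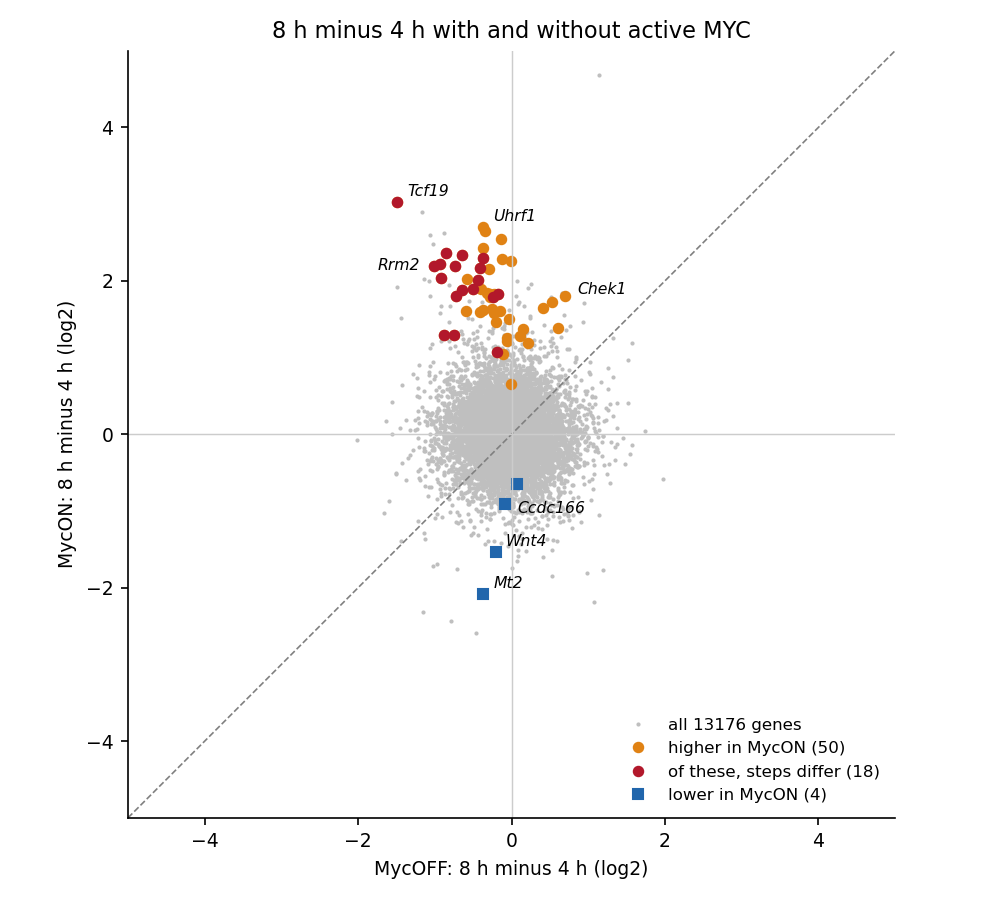
Change at 8 h minus 4 h in log2 units for each of 13176 genes, MycON islets on the vertical axis and MycOFF islets on the horizontal axis, with the genes that passed coloured. The 50 genes that rose all lie above the line of equal steps, and 43 of them lie left of 0 on the MycOFF axis and 7 right of it. Of all 13176 genes, 5287 lie right of 0 on that axis.

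In MycOFF islets the smallest p-values belonged to Nfil3 (-1.03, adjusted p 0.456), a clock-linked repressor, Tmc4 (1.34, adjusted p 0.487), Cdh4 (0.84, adjusted p 0.487), Pa2g4 (-1.24, adjusted p 0.487) and Cttnbp2nl (-1.19, adjusted p 0.883). Nfil3 had -0.15 to 0.13 in MycOFF islets at 8 h, against 0.61 to 2.04 at 4 h, without overlap. Its MycON arrays had -0.14 to 0.30 at 8 h and -0.17 to -0.02 at 4 h. The clock output gene Dbp stepped by -0.26 in MycON islets and by 1.54 in MycOFF islets, and 0 of 15 tested clock genes passed in either.

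Exendin-4 and water arrays were pooled, with the injection as a term in the model, and the steps of all 50 genes were above 0 with each injection. The step was larger with exendin-4 in 39 of the 50, with medians of 2.12 with exendin-4 and 1.66 with water, where the medians over all genes were 0.12 and -0.01. Over all genes tested, the median of the exendin-4 step minus the water step was 0.22, so most genes had the larger step with exendin-4. As a difference between injections, 0 of the 50 passed after adjustment by limma, and 10 had an unadjusted p under 0.05, which 1260 of all genes had (9.56%). E2f8 stepped by 2.74 with exendin-4 and 1.04 with water (difference 1.71 ± 0.39, adjusted p 0.442). Bub1b stepped by 3.90 with exendin-4 and 1.65 with water (difference 2.26 ± 0.90, adjusted p 0.516), and Brca1 by 2.94 with exendin-4 and 0.87 with water (difference 2.07 ± 0.64, adjusted p 0.515). In the other direction Prim1 stepped by 1.32 with exendin-4 and 2.26 with water, and Incenp by 1.37 with exendin-4 and 2.16 with water.

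Fitted alone, the exendin-4 arrays gave 11 genes and the water arrays 0, with 798 and 1469 genes at an unadjusted p under 0.05 by limma. Over all genes, 1 passed for the difference between injections (0.00759%), Ipmk, an inositol phosphate kinase. Ipmk did not pass with the 2 excluded arrays put back or with the replicate number as a block. Its call was also lost in most of the 22 fits that leave out 1 array. Its MycON arrays with exendin-4 had 0.90 to 1.05 at 8 h, against -0.34 to -0.13 at 4 h, while those with water had -0.35 to 0.40 at 8 h, against 0.94 to 1.96 at 4 h (difference 2.75 ± 0.40, adjusted p 0.0457). The next by p were Klk1b11 (-1.46 ± 0.23, adjusted p 0.0505), Yod1 (3.19 ± 0.54, adjusted p 0.0778), Ints8 (2.79 ± 0.57, adjusted p 0.434) and Enkur (-0.92 ± 0.19, adjusted p 0.434). The 4 h exendin-4 group holds 2 arrays, and without replicate 2 of them 102 genes passed for this difference.

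**Figure D3:**
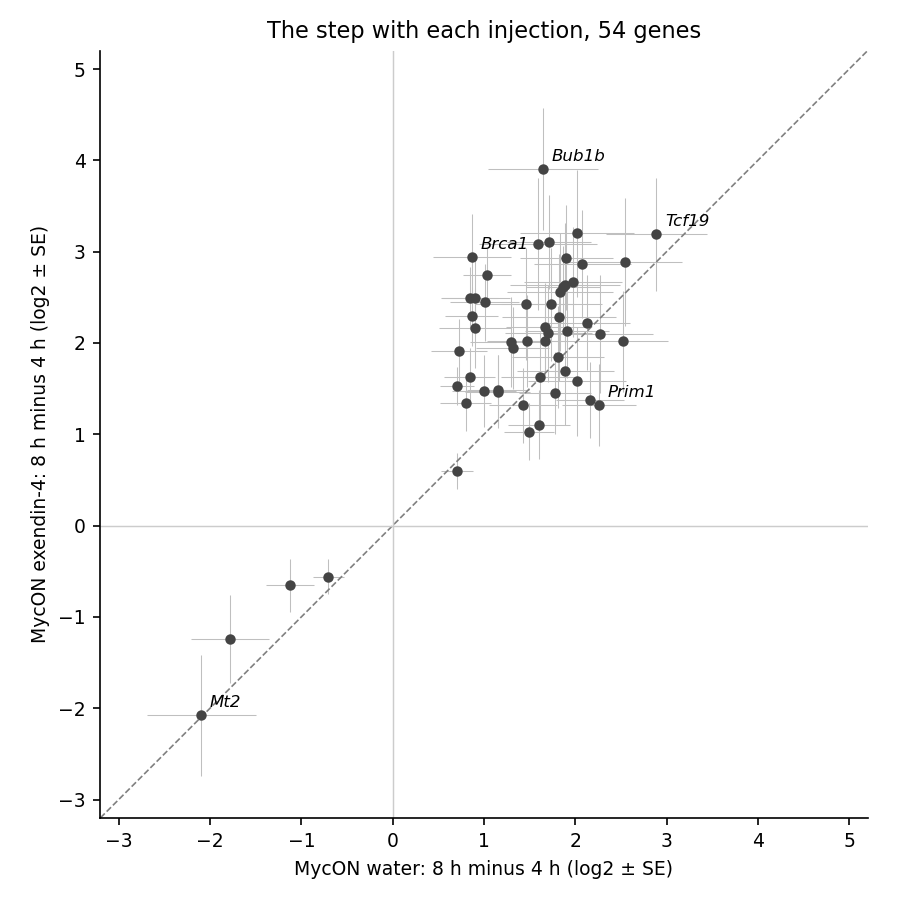
Step at 8 h minus 4 h in MycON islets for the genes that passed, exendin-4 on one axis and water on the other, in log2 units ± SE, with a dashed line of equal steps. All 50 genes that rose lie above 0 on both axes, and 39 of them lie on the exendin-4 side of the line. Over all genes tested, the median of the exendin-4 step minus the water step was 0.22.

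Lists of MYC target and ribosome genes held no called gene, where 0.410% of all genes tested were called in either direction, so that the counts of 0 are near that background. Of 27 tested genes in a list of known MYC targets, 0 passed in either direction, with a median step of -0.00 in MycON islets and -0.38 in MycOFF islets. Among them were Odc1, the first enzyme of polyamine synthesis (0.23), Npm1 (-0.07), Ncl (-1.16, adjusted p 0.926) and Pa2g4 (0.06). The value for Ncl is that of 1 probe set, and its others past the filter stepped by 0.03, -0.30, 0.03 and 0.17 in MycON islets. Pa2g4 had 1.16 to 2.11 in MycON islets at 8 h and 1.13 to 1.74 at 4 h, and -1.62 to -0.34 at 8 h and -0.13 to 1.13 at 4 h in MycOFF islets. Of 43 tested ribosome biogenesis genes 0 passed, and 32 had a step below 0 (median -0.18 in MycON islets and -0.10 in MycOFF islets). Over all genes tested, 5732 of 13176 had a MycON step below 0. The sign of the list's MycON median changed with the injection, at 0.10 with exendin-4 and -0.37 with water. The mean of that list in MycON arrays was 0.60 ± 0.43 at 8 h (SD, n = 6) and 0.76 ± 0.28 at 4 h (SD, n = 5), and in MycOFF arrays -0.32 ± 0.44 at 8 h (SD, n = 5) and -0.09 ± 0.14 at 4 h (SD, n = 6). At 4 h its MycON arrays had 0.36 to 1.13 and its MycOFF arrays -0.26 to 0.13, without overlap.

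**Figure D4:**
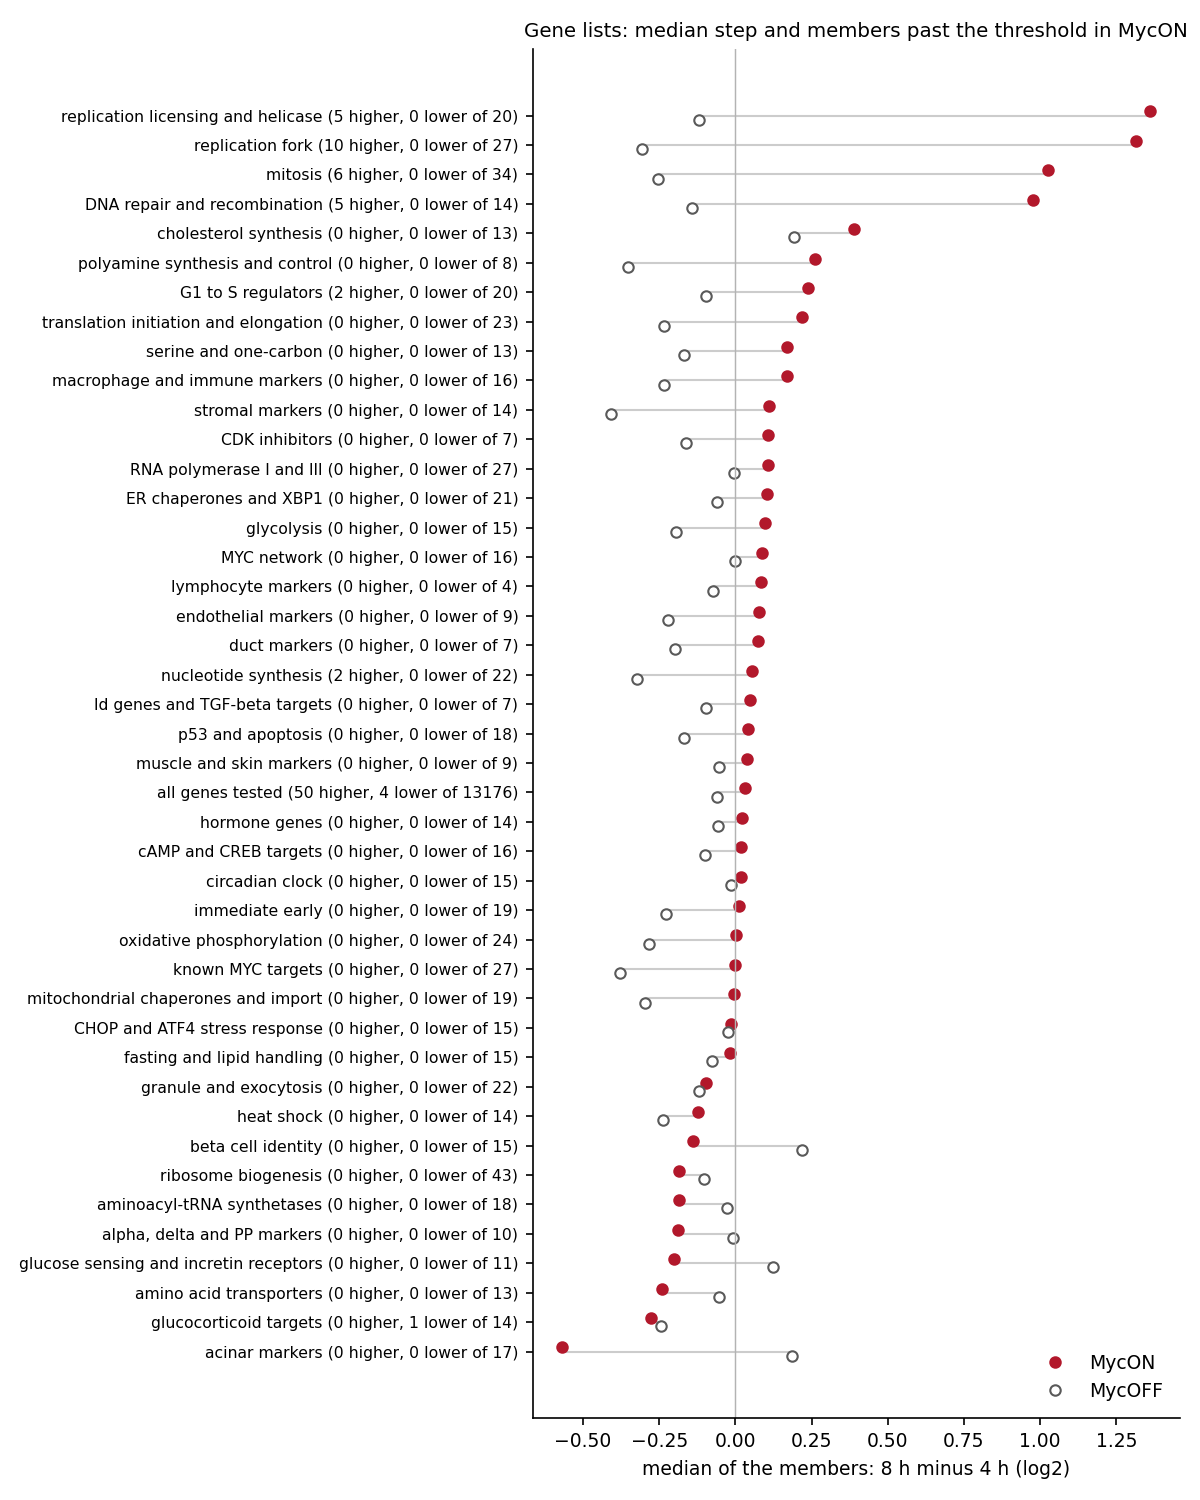
Median step at 8 h minus 4 h, in log2 units, of each gene list and of all genes tested, in MycON and MycOFF islets. The highest medians in MycON islets are those of replication licensing (1.36), replication fork (1.31), mitosis (1.03) and DNA repair (0.98), and acinar markers are lowest (-0.57).

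Lists of other functions had 0 genes past the threshold in MycON islets, again near the share over all genes. They covered the MYC network, polyamines, amino acid transport, translation, tRNA synthetases, RNA polymerases I and III, one-carbon metabolism, glycolysis, oxidative phosphorylation, mitochondrial import, stress of the endoplasmic reticulum, heat shock, p53 and apoptosis, immediate early genes, the cAMP response, Id genes, fasting, glucose sensing, granules and cholesterol synthesis, with medians between -0.24 (amino acid transporters) and 0.39 (cholesterol synthesis). Beta cell identity genes had 0 of 15 passing, with a median of -0.14, and Pdx1, the beta cell master regulator, stepped by -0.22 in MycON islets and 0.74 in MycOFF islets. The sign of its MycON step depended on the probe set: another Pdx1 probe set past the filter stepped by 0.30. The unadjusted p-values of these 2 MycON steps by limma were 0.284 and 0.426. Hormone genes had 0 of 14 passing. Ins2 was erratic, with MycON arrays from -5.76 to 0.82 at 8 h and from -6.01 to 0.93 at 4 h (step 0.97 ± 1.59).

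Markers of other cells in the sections did not pass either. Acinar enzymes had the lowest list median, -0.57 over 17 tested genes, -1.43 with exendin-4 and -0.04 with water, and 0.19 in MycOFF islets. Their mean per array ran from -1.23 to 1.78 in MycON islets at 8 h and from -0.64 to 1.62 at 4 h. The MycON 8 h array lowest in acinar markers had a mean of 1.85 over the 50 genes, and the one highest in acinar markers had 2.13. Macrophage and immune markers, 16 tested, averaged -0.75 to 0.56 in MycON islets at 8 h and -1.11 to 0.19 at 4 h. Lymphocyte markers, 4 tested, averaged -0.05 to 0.48 at 8 h and -0.06 to 0.38 at 4 h. The median steps were 0.08 for endothelial, 0.11 for stromal, 0.07 for duct, -0.19 for alpha, delta and PP cell and 0.04 for muscle and skin markers. The part of these cells in the 50 rises was not tested, and centred values cannot show which markers are absent.

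The later MycON arrays give the course of the 50 genes, as a description. The 50 were chosen as higher at 8 h than at 4 h in these MycON arrays. That choice by itself favours the counts below that set other groups against either time. The same counts were not made over all genes. Their mean per array was -0.24 ± 0.21 at 4 h (SD, n = 5), 1.62 ± 0.45 at 8 h (n = 6), 1.69 ± 1.29 at 16 h (n = 4), 0.54 ± 0.22 at 32 h (n = 4) and 0.86 ± 0.92 at 72 h (n = 6). At 16 h the 4 arrays ran from 0.27 to 3.27, a wider range than at 8 h. The mean at 16 h was above that at 8 h for 28 of the 50 genes, at 32 h for 1 and at 72 h for 9. Relative to 4 h, the mean was higher for 50 genes at 16 h, 47 at 32 h and 48 at 72 h. Mki67 averaged 1.29 ± 0.53 at 8 h, 3.00 ± 2.23 at 16 h, -0.22 ± 0.62 at 32 h and 1.92 ± 1.46 at 72 h, while Hells averaged 3.22 ± 1.03 at 8 h, 1.92 ± 1.98 at 16 h, 2.32 ± 0.84 at 32 h and 0.47 ± 1.40 at 72 h (SD). Macrophage and immune markers averaged -0.34 ± 0.50 at 8 h, 0.74 ± 1.24 at 16 h, 0.98 ± 0.37 at 32 h and 1.88 ± 0.94 at 72 h, and their part in the later means was not tested. The MycON mean was above the MycOFF mean for 21 of the 50 genes at 4 h and for 49 at 8 h, the exception at 8 h being Scn9a.

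**Figure D5:**
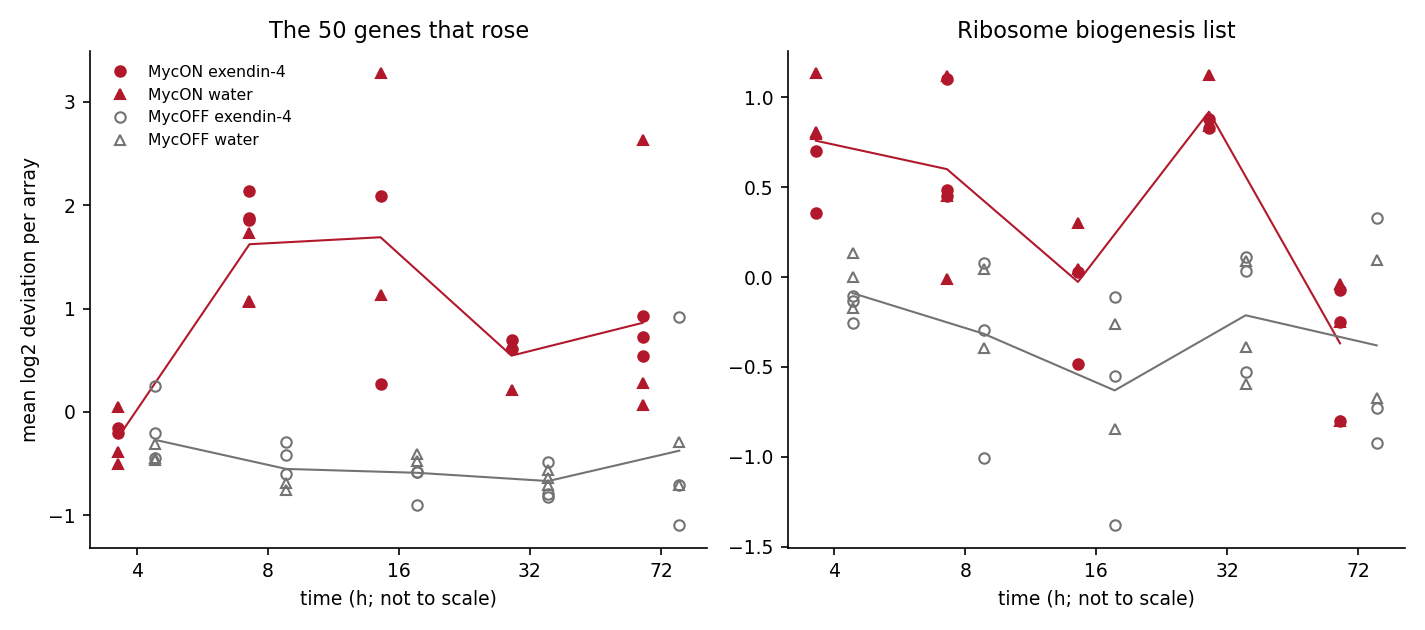
Mean log2 deviation per array over the 50 genes that rose and over the ribosome biogenesis list at 4, 8, 16, 32 and 72 h in MycON and MycOFF islets; points are arrays and lines join group means. The 50 genes lie between 1.07 and 2.13 in MycON islets at 8 h, above every MycON array at 4 h, and the ribosome list is above MycOFF in all MycON arrays at 4 h.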

How the data were processed

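RNA of laser-captured mouse islets had been hybridised to 60 Affymetrix arrays, planned as 3 per time and treatment. The values are log2 deviations as deposited by the authors, 1 per probe set and array, each probe set centred on its median over the 60 arrays; per the submitters' processing notes, MAS5 and GCRMA were used, in roles not stated. The log base is not given in the sources used here and was inferred from the range of -12.3 to 12.8. Of 45101 probe sets, 34945 carry 1 gene symbol, 932 several and 9160 none, and 64 controls were left out. Probe sets in the lowest 40% by interquartile range over the 52 kept arrays (under 0.101) were dropped, and each gene was read by its probe set of largest such range, giving 13176 genes.

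limma 3.58.1 in R 4.3.3 fitted 4 groups (MYC state by time) with an injection term within each MYC state to 22 arrays, with 16 residual degrees of freedom, and p-values were Benjamini-Hochberg adjusted over all genes. A fold change is 2 to the power of the step, on the centred log2 scale. The number of arrays limits the precision. The fit was tested on simulated data. Named genes were the 15 largest rises, the 8 largest positive differences and up to 4 called genes per list. For falls and negative differences, where fewer than 5 passed, the 5 smallest p were taken. The 5 smallest p of the MycOFF and injection contrasts and 28 chosen genes, 4 of which were not tested, were added. The other called genes and further list members were chosen after their values were seen. The members and lists were chosen with earlier results of these data known. Alternatives changed the arrays, filter, normalization, probe sets and weights and left out each array.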

Additional observations from a re-analysis of the deposited data

Results flagged for a closer look

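Of 216 combinations of a called gene and a group, 22 held an array far from the others of its group, where chance gives about 1 in 20. In MycOFF islets at 4 h, exendin-4 replicate 3 was the highest array for Birc5 (1.0931), Brca1 (0.862), Bub1b (2.2801), Ccna2 (1.6696), Mki67 (2.2471) and Ndc1 (0.6621). In the same group water replicate 2 was highest for BC055324 (0.6874) and exendin-4 replicate 2 lowest for Pole (-0.5442). In MycOFF islets at 8 h, exendin-4 replicate 3 was highest for Birc5 (0.3721), Ccna2 (0.8206) and Rrm1 (-0.1772), exendin-4 replicate 1 highest for Gins3 (0.7443) and lowest for Tspan4 (-2.7104), exendin-4 replicate 2 lowest for Pold1 (-1.7143), and water replicate 1 highest for Fjx1 (0.2835). In MycON islets at 8 h, exendin-4 replicate 2 was highest for Mcm4 (2.8031) and exendin-4 replicate 3 for Fjx1 (0.0914). In MycON islets at 4 h, exendin-4 replicate 1 was highest for Ccna2 (0.8544) and Pold1 (0.7664) and lowest for Bub1b (-0.2598), and water replicate 3 was lowest for Ncapg2 (-1.1176) and Pole (-0.5296).

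The step differed between MycON and MycOFF islets, by limma's test of the difference, for Tcf19 (4.52), Lig1 (3.42), Top2a (3.21), Rrm2 (3.21), Atad2 (3.16), Spc24 (2.97), Cenpk (2.96), Rrm1 (2.94), Rfc4 (2.67) and Dscc1 (2.58). The other 10 were Incenp (2.54), Ccna2 (2.53), Rpa2 (2.44), Mki67 (2.39), Ndc1 (2.18), Stmn1 (2.04), E2f8 (2.03), Psmc3ip (2.00), Eri1 (1.50) and Rad54l (1.26). Between exendin-4 and water in MycON islets the step of Ipmk differed, by 2.75.

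Of the 2 arrays left out at these times, the MycON array at 4 h had mean deviations of 5.89 in lymphocyte markers, 2.71 in macrophage and immune markers and 1.39 in stromal markers, and the MycOFF array at 8 h had 5.96 in lymphocyte and 2.93 in macrophage and immune markers. The 22 arrays kept at 8 and 4 h reached at most 0.66 in lymphocyte, 0.56 in macrophage and immune and 0.65 in stromal markers. Over all 52 kept arrays the highest means were 2.63, 2.78 and 2.62 in that order of lists, each at 72 h.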

How the results depend on the processing

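The 54 genes changed in MycON islets, the 0 in MycOFF islets, the 20 differences between them and the 1 difference between injections (Ipmk) depend on the arrays. With all 24 arrays of both times there were 0, 0, 0 and 0, and with 52 arrays of all times 0, 0, 0 and 1, in that order of comparison. In MycON islets 734 (5.57%) and 653 genes (4.96%) had an unadjusted p under 0.05 in those fits, against 844 (6.41%) in the fit of 22 arrays. Quantile normalization gave 20, 1, 4 and 2 genes, array weights 121, 1, 54 and 11 (106 higher and 15 lower in MycON islets, 87.6% higher), no filter on spread 38, 0, 9 and 12, and the mean over probe sets 70, 0, 18 and 1. Ipmk was not among the genes that differed between injections under quantile normalization or the mean over probe sets. Water arrays only gave 0 in each of the first 3 comparisons (1469 genes at an unadjusted p under 0.05 in MycON islets), exendin-4 arrays only 11, 0 and 2, and MycON arrays only 22. Of those last 22 genes, 16 were among the 54. With the replicate number as a block there were 40, 0, 12 and 0. The labels do not say whether the numbers pair the arrays. Deviations of same-numbered arrays at 8 and 4 h correlated at -0.205 to 0.0845 in MycON pairs and 0.0789 to 0.363 in MycOFF pairs. Of the 10 pairs, 4 were over 0.1, all of them MycOFF. Whether same-numbered arrays share a batch was not tested. Leaving out each array in turn gave 9 to 65 genes in MycON islets, 0 to 1 in MycOFF islets, 2 to 25 differences and 0 to 102 differences between injections. In MycON islets the count was moved by over 1.5 times without exendin-4 replicates 1 (34), 2 (35) or 3 (29) at 8 h, water replicate 1 at 8 h (26), exendin-4 replicates 1 (25) or 2 (9) at 4 h, and water replicates 1 (31) or 3 (28) at 4 h. Tcf19, Rfc4, Rrm1, Dscc1, Rpa2, E2f8, Rad54l and Psmc3ip passed in all 22 of those fits. The steps of the 54 genes kept their sign in every setting except in other probe sets, chosen after seeing the data, of Atad2 (-0.011), Chek1 (-0.00073) and Top2a (-0.077). Other signs turned for the MycON step of Klk1b11 in water arrays only (0.15), Cttnbp2nl in exendin-4 arrays only (0.33), and Ints8 in exendin-4 arrays only (0.54) and in another probe set (0.27). The cause of these changes was not tested.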
